A study of Mus musculus with 8 samples.

Results

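Imprinted genes, of which cells use mainly the copy inherited from the mother or mainly the copy inherited from the father, were followed in mouse embryonic stem cells (ESCs) depleted of Kdm2b. A list of 40 imprinted genes was taken, with the allele they express and the imprinted domain they lie in as generally described, and 35 of them were measured by a probe set that names them alone, out of 19938 genes measured in this way. RNA came from E14, an ESC line that needs no feeder cells and was grown in medium with LIF. Cells in 4 samples stably carried a lentiviral pLKO.1puro shRNA against Kdm2b (shKdm2b, passages 27 to 30), and cells in the 4 control samples carried the same vector with a scrambled shRNA (shScr, passages 28 to 31). Both lines had been infected in the presence of polybrene and selected with puromycin, so the vector and the drug were common to all arrays. The passage number of every knockdown sample was lower by 1 than that of the equally numbered control. Since a group rests on 1 shRNA and the labels do not tie replicates to independently infected lines, p-values cover only the spread among these samples.

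Imprinting is set in the germ line by DNA methylation of imprinting control regions, which survives the loss of methylation after fertilisation because ZFP57, TRIM28 and SETDB1 hold it on the marked copy. Many imprinted genes act on fetal growth and the placenta, with paternally expressed genes such as Igf2 and Peg3 and maternally expressed genes such as Igf2r and Grb10 often described as acting in opposite directions. ESC lines are known to gain or lose imprints in culture. KDM2B binds unmethylated CpG through its ZF-CxxC domain and brings the variant polycomb complex with PCGF1 and RING1B to CpG islands, and the repression of the silent copy in some domains, the Kcnq1 domain among them, is known to involve polycomb.

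Values are log2 signals made by RMA, a method that corrects background, brings all arrays to the same distribution and summarises the probes into 1 value per probe set. An array reads both parental copies together, so a change cannot be assigned to an allele. In a culture, fewer cells of a type and less RNA per cell cannot be told apart either. The medians of the 8 arrays lay between 8.47 and 8.53. The signal of Kdm2b was 8.68 to 9.45 on the knockdown arrays and 10.74 to 11.34 on the control arrays (log2 fold change -2.05, adjusted p = 0.000891 from limma). A gene was called when most of its probe sets had an adjusted p under 0.05 from limma over all probe sets and the strongest changed at least 1.5-fold, which is the study's own rule. Each of the 35 imprinted genes was read by 1 probe set.

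By this rule 4 imprinted genes fell in the knockdown arrays, which is 11.4% of the 35, whereas 1.43% of all genes were called lower. All of them (Peg3, Mest, Nnat and Mcts2) are expressed from the paternal copy. No imprinted gene was called higher by limma, beside 1.42% of all genes. With only 35 genes, a count of none lies close to that share. At an unadjusted p under 0.05 (in the strongest probe set of a gene), 10 of the 35 were lower (28.6%, beside 13.6% of all genes) and 6 higher (17.1%, beside 16.8% of all genes). Without the 1.5-fold condition, limma gave an adjusted p under 0.05 for 5 imprinted genes that were lower (14.3%, beside 4.55% of all genes) and for 2 that were higher (5.71%, beside 5.75% of all genes). The additional genes were Grb10, which was lower, and Copg2 and Igf2r, which were higher. The median log2 fold change over the 35 genes was -0.04 and that over all genes was 0.05. The knockdown arrays lay wholly below or wholly above the control arrays in 9 imprinted genes (25.7%), and in 20.6% of all genes. The imprinted genes were more often bright, with signals above the median of all probe sets (28 of 35, beside 11606 of 19938 genes). In a fit of bright probe sets only, 4 of 28 imprinted genes were called lower, beside 2.01% of genes. There 8 of the 28 had an adjusted p under 0.05 in either direction, beside 21.1% of genes. An unadjusted p under 0.05 was found for 50% of the 28, beside 41.1% of genes.

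**Figure D1:**
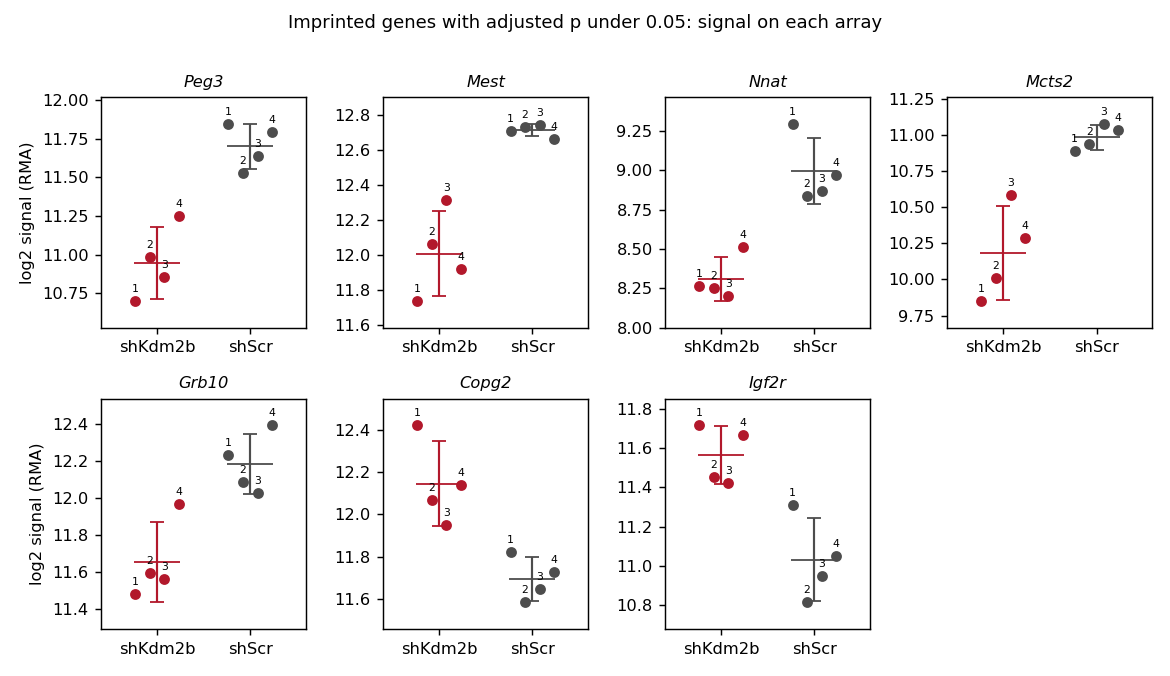
Log2 signal (RMA, vertical axis, a separate range for each gene) of the 7 imprinted genes with an adjusted p under 0.05, on the 4 shKdm2b arrays (red) and the 4 shScr arrays (grey). Digits give the replicate, the horizontal bar the mean and the error bar 1 SD. Peg3, Mest, Nnat, Mcts2 and Grb10 lie lower on all knockdown arrays, and Copg2 and Igf2r lie higher.

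The promoters of the 4 called genes and of the 2 genes that passed the test in the other direction are shown. KDM2B recognises unmethylated CpG, and these promoters differ in their number of CpG, whose methylation was not measured here. The sequences are RefSeq windows on GRCm38 from 250 bases before to 50 bases after a transcription start, read 5′ to 3′ on the strand of the gene, with every CpG in capitals. Where RefSeq gives several starts, the window with the most CpG was taken, and which start these cells used was not measured. The windows are chr7:6730370-6730669 (minus strand) for Peg3, chr6:30737800-30738099 (plus) for Mest, chr2:157559828-157560127 (plus) for Nnat, chr2:152686898-152687197 (plus) for Mcts2, chr6:30896745-30897044 (minus) for Copg2 and chr17:12769657-12769956 (minus) for Igf2r.
Peg3: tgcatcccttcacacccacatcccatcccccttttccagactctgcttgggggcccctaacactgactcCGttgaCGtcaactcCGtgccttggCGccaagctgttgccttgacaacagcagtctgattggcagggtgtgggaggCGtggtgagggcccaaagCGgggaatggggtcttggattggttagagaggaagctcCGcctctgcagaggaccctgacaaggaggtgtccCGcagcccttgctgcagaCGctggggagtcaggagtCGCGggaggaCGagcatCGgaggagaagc
Mest: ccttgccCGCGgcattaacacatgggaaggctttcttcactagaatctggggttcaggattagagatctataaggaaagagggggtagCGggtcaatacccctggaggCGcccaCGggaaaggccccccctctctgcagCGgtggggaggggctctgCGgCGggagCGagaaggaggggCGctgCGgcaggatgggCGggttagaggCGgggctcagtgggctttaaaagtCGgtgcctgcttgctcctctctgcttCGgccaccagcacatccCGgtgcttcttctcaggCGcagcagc
Nnat: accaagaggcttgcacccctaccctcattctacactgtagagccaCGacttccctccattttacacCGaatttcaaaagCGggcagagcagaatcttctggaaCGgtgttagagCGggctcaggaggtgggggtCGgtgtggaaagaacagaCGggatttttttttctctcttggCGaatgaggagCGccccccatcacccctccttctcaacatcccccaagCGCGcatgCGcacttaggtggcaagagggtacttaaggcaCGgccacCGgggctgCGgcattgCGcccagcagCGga
Mcts2: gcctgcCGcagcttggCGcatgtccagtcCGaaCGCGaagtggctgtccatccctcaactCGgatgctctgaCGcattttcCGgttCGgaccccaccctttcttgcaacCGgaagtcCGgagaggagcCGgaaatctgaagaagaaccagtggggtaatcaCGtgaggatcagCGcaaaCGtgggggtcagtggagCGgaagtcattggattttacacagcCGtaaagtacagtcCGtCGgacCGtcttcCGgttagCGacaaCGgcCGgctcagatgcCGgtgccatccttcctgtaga
Copg2: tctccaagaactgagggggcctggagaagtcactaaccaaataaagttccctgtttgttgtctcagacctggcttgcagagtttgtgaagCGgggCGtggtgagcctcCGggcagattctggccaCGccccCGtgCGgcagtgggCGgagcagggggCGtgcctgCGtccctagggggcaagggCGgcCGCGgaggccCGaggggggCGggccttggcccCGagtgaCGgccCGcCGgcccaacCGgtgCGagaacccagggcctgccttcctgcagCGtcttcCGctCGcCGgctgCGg
Igf2r: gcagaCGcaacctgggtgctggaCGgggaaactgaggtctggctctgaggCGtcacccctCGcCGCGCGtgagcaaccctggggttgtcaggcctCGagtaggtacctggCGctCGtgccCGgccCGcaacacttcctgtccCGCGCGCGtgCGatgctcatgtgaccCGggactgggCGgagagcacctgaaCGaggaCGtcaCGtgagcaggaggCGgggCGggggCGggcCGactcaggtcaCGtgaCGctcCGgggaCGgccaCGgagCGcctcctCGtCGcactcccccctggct
The Peg3 window holds 13 CpG, the Mest and Nnat windows 17 each, the Mcts2 and Copg2 windows 25 each and the Igf2r window 34. The Grb10 window, with 45 CpG, is among the densest of the imprinted genes.

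Peg3 encodes a zinc finger protein that is expressed from the paternal copy and influences growth and maternal behaviour. On the knockdown arrays, listed from replicate 1 to 4 here and throughout, it gave log2 signals of 10.70, 10.98, 10.86 and 11.25, against 11.84, 11.53, 11.64 and 11.79 on the control arrays. The groups did not overlap, and knockdown replicate 4 lay nearest to the controls. The signal fell by 40.7%, at a log2 fold change of -0.75 with a standard error of 0.12 and a 95% confidence interval of -1.03 to -0.48 (limma, adjusted p = 0.0105). Zim1, a maternally expressed zinc finger gene beside Peg3, gave 7.46, 7.75, 7.54 and 7.55 on the knockdown arrays and 8.59, 7.72, 7.45 and 7.79 on the control arrays. Only control replicate 1 lay clear of the other 7 arrays, and the log2 fold change of -0.31 (standard error 0.21) did not pass the test (adjusted p = 0.391 from limma). The probe set of Zim1 is dim, below the median of all probe sets.

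Mest, also called Peg1, encodes a protein of the alpha/beta hydrolase family and is expressed from the paternal copy in the embryo. On the arrays it gave log2 signals of 11.74, 12.06, 12.31 and 11.92 after knockdown, and 12.71, 12.73, 12.74 and 12.66 on the control arrays. The control arrays lay within a narrow range, and every knockdown array was below it. Signal fell by 38.6% (log2 fold change -0.70, standard error 0.11, adjusted p = 0.0096 from limma). Copg2, which encodes a subunit of the COPI vesicle coat and lies tail to tail with Mest on the opposite strand, gave 12.42, 12.07, 11.95 and 12.14 on the knockdown arrays and 11.82, 11.58, 11.65 and 11.73 on the control arrays. All knockdown arrays lay above all control arrays. Copg2 was thus 1.37-fold higher, under the 1.5-fold limit (log2 fold change 0.45, standard error 0.10, adjusted p = 0.0343 from limma). The 2 neighbours therefore passed the test in opposite directions, and Copg2 is described in mouse as favouring the maternal copy.

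Nnat encodes neuronatin, a small membrane protein abundant in the developing brain, and lies within an intron of Blcap. Nnat gave log2 signals of 8.27, 8.25, 8.20 and 8.51 on the knockdown arrays, and 9.30, 8.84, 8.87 and 8.97 on the control arrays. The groups did not overlap, and control replicate 1 was the highest. Nnat fell by 37.9% (log2 fold change -0.69, standard error 0.11, adjusted p = 0.0113 from limma). Blcap, the host gene, gave 9.64, 9.45, 9.56 and 9.51 on the knockdown arrays and 9.61, 9.59, 9.57 and 9.70 on the control arrays, with overlapping groups. Its log2 fold change was -0.08 (95% confidence interval -0.21 to 0.06, adjusted p = 0.446 from limma). Of the 12 neural markers measured, 2 fell by the gene rule (16.7%, beside 1.43% of all genes) and none was called higher by limma. At an unadjusted p under 0.05, 4 were lower (33.3%, beside 13.6% of all genes) and 2 higher (16.7%, beside 16.8%). Fold changes were positive in 7 and negative in 5 of the markers, with a median of 0.07 and a range of -1.59 to 0.74 on the log2 scale. The mean list signal was 8.64 to 8.78 on the knockdown arrays and 8.87 to 9.04 on the control arrays. The part of these markers in the result for Nnat was not tested.

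Mcts2, a retrocopy of the X-linked gene Mcts1 that lies within an intron of H13, is expressed from the paternal copy. Mcts2 gave log2 signals of 9.85, 10.01, 10.59 and 10.28 on the knockdown arrays, and 10.89, 10.94, 11.08 and 11.04 on the control arrays. Every knockdown array was below every control array, replicate 3 by the least. Mcts2 fell by 42.7% (log2 fold change -0.80, standard error 0.15, adjusted p = 0.0162 from limma). It lost its call without knockdown replicate 2 (adjusted p = 0.0559 from limma) and without control replicate 3 (0.0537). Mcts1, the parent gene, was not on the list and was added after its values were seen. It showed a nearly equal difference, with 7.37, 8.02, 8.52 and 7.73 on the knockdown arrays, against 8.64, 8.72, 8.83 and 8.68 on the control arrays (log2 fold change -0.81, standard error 0.21, adjusted p = 0.0506 from limma, or 0.0318 with replicate numbers as a block). In both genes replicate 1 was the lowest and replicate 3 the highest of the knockdown arrays. The transcripts of a retrocopy and its parent are nearly identical, so the 2 probe sets may read each other's RNA, and which of the genes fell cannot be told apart here.

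H13, the host gene, encodes signal peptide peptidase, and the site at which its transcripts end is known to depend on the allele. H13 gave 11.61, 11.40, 11.48 and 11.21 on the knockdown arrays and 11.85, 11.57, 11.81 and 11.61 on the control arrays, with slight overlap. This is a log2 fold change of -0.28 (standard error 0.10), with an adjusted p of 0.123 from limma and of 0.0391 once replicate numbers entered as a block.

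**Figure D2:**
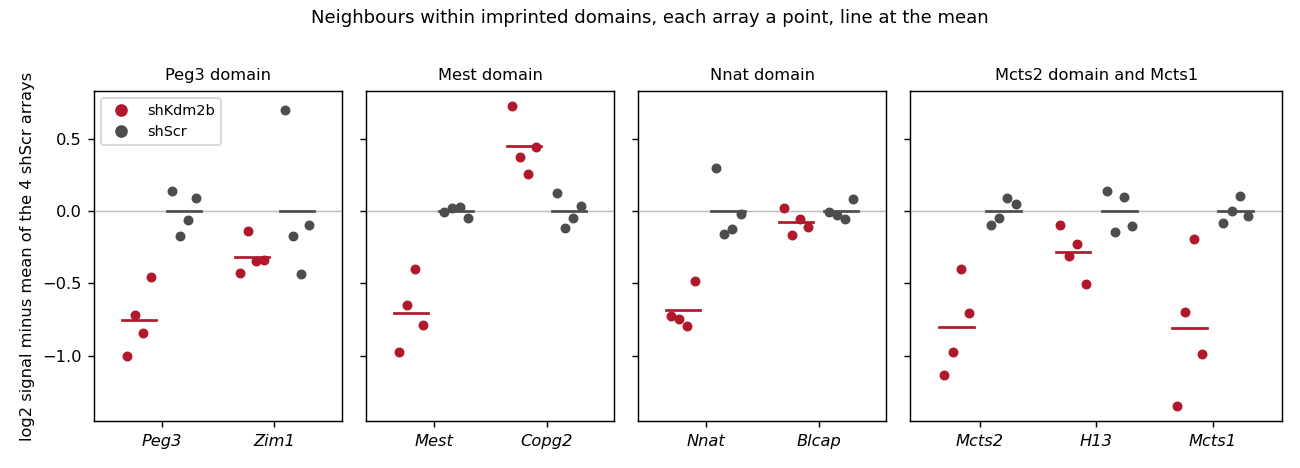
Log2 signal minus the mean of the 4 shScr arrays (vertical axis) for neighbours in 4 imprinted domains, with each shKdm2b array as a red point, each shScr array as a grey point and lines at the group means. Mest lies below and Copg2 above its controls, Peg3 and Nnat are displaced further than Zim1 and Blcap, and Mcts2 resembles Mcts1.

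The remaining genes that passed the test both encode regulators of fetal growth. Grb10, an adaptor that restrains insulin and IGF signalling, is expressed from the maternal copy in most tissues and from the paternal copy in neurons. Grb10 gave 11.48, 11.60, 11.56 and 11.97 on the knockdown arrays and 12.23, 12.08, 12.03 and 12.39 on the control arrays. Knockdown replicate 4 came close to the lowest control array without overlap. Grb10 was 1.45-fold lower (log2 fold change -0.53, standard error 0.12, adjusted p = 0.0338 from limma). Igf2r, the receptor that carries IGF2 to lysosomes for destruction, is described as expressed from the maternal copy. Igf2r gave 11.72, 11.45, 11.42 and 11.67 on the knockdown arrays and 11.31, 10.81, 10.95 and 11.05 on the control arrays, again without overlap. Igf2r was 1.45-fold higher (log2 fold change 0.53, standard error 0.12, adjusted p = 0.0286 from limma). Airn, the paternal transcript that overlaps Igf2r and silences the paternal copy in the embryo, had a log2 fold change of -0.31 (adjusted p = 0.44 from limma). The probe set of Airn is dim. Only control replicate 1, at 8.38, lay clear of the other arrays, which were at 7.15 to 7.39.

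The result for these genes depended on single arrays more than that for Peg3, Mest and Nnat. The adjusted p of Grb10 from limma was above 0.05 in fits that lacked knockdown replicate 1 or 2 or any of the controls, at most 0.0963, and without knockdown replicate 4 Grb10 was called lower at a log2 fold change of -0.64. That of Igf2r was above 0.05 when knockdown replicate 1, 2 or 4, or any control but replicate 1, was left out, at most 0.0868. That of Copg2 was above 0.05 when knockdown replicate 2 or 4, or any control but replicate 1, was left out, at most 0.0979. Peg3, Mest and Nnat had highest values of 0.0362, 0.0363 and 0.0438 from limma when 1 array was left out. In a fit limited to passages 28 to 30, with 3 arrays a group and passage as a term, none of the 35 genes passed the test by limma, while 15 (42.9%) had an unadjusted p under 0.05, beside 18.8% of all genes. There Peg3, Mest, Nnat and Mcts2 had log2 fold changes of -0.64, -0.63, -0.68 and -0.67 with adjusted p of 0.088, 0.0799, 0.121 and 0.0968 from limma, and of all genes 0.802% passed, beside 10.3% with all 8 arrays.

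**Figure D3:**
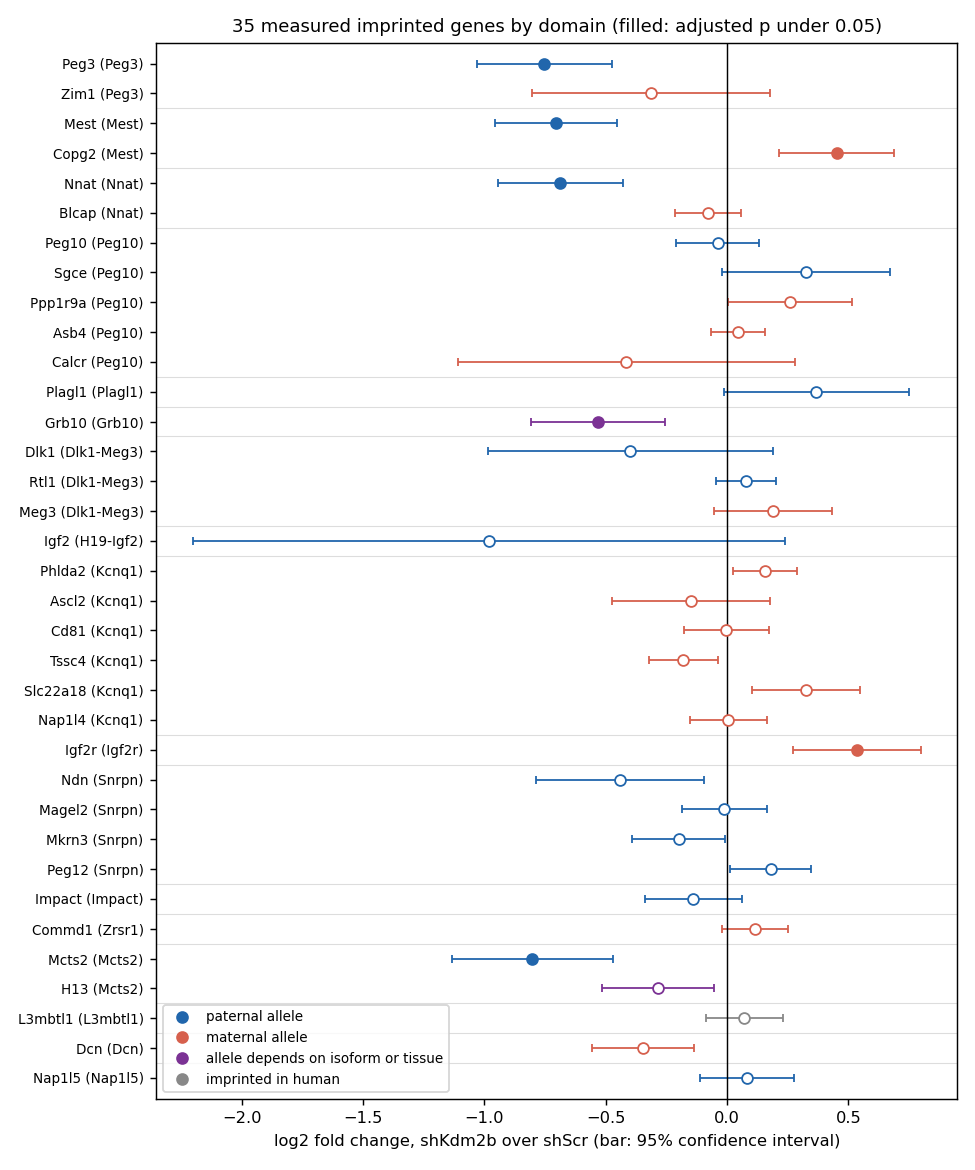
Log2 fold change of shKdm2b over shScr (horizontal axis) with its 95% confidence interval for the 35 measured imprinted genes, grouped by domain (in brackets) and coloured by the allele they are described to express. Filled points had an adjusted p under 0.05 from limma. The 4 called genes are paternally expressed, the interval of Igf2 is the widest, and most intervals include or lie near 0.

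Genes were grouped by the allele they are generally described to express, and the copy used in these cells was not measured. In the paternal group of 16 measured genes, 4 were called lower (25%, beside 1.43% of all genes). None was called higher by limma. At an unadjusted p under 0.05, 6 of them were lower (37.5%, beside 13.6% of all genes) and 1 higher (6.25%, beside 16.8%). Their median log2 fold change was -0.17, with a range of -0.98 to 0.37. The maternal group held another 16 measured genes, of which none was called in either direction by limma. Here 2 were lower (12.5%) and 5 higher (31.2%) at an unadjusted p under 0.05, beside the same shares of all genes. Their median was 0.03, with a range of -0.41 to 0.53, and the 2 that passed the test were higher. Grb10 and H13, grouped apart because their expressed copy depends on tissue or isoform, had -0.53 and -0.28. Dcn, described as imprinted in the placenta, was counted in the maternal group. L3mbtl1, which is imprinted in human and was kept on the list, had 0.07. The difference between the paternal and the maternal group was not tested, and within both groups most genes did not pass the test.

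Igf2, which encodes the main fetal insulin-like growth factor and is expressed from the paternal copy, had the most negative fold change of the 35 genes and did not pass the test. Its log2 signal was 10.53, 10.64, 10.00 and 9.17 on the knockdown arrays, and 12.60, 10.57, 10.08 and 11.00 on the control arrays. Control replicate 1 lay far above the other arrays, and the groups overlapped. This amounts to a log2 fold change of -0.98, with a standard error of 0.54 and a 95% confidence interval of -2.20 to 0.24 (limma, adjusted p = 0.286). Without control replicate 1 it was -0.47 (adjusted p = 0.48 from limma).

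In the Dlk1-Meg3 domain, Dlk1, a paternally expressed membrane protein of the Notch ligand type, gave 10.13, 9.88, 10.15 and 10.13 on the knockdown arrays and 11.33, 9.95, 10.24 and 10.37 on the control arrays. Here too control replicate 1 stood alone, and the log2 fold change was -0.40 (adjusted p = 0.363 from limma), or -0.11 without that array. Meg3, the maternally expressed long noncoding RNA of the domain, whose silencing is a known defect of some ESC and iPSC lines, gave 11.52, 11.41, 11.65 and 11.70 on the knockdown arrays and 11.19, 11.24, 11.51 and 11.57 on the control arrays. Its log2 fold change was 0.19 (95% confidence interval -0.06 to 0.43, adjusted p = 0.305 from limma). Rtl1, a retrotransposon-derived paternal gene, had 0.08 (adjusted p = 0.405 from limma), with a dim probe set.

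The 6 genes of the Kcnq1 domain, maternally expressed and studied mostly in the placenta, had log2 fold changes of -0.18 to 0.32 with a median of 0.00. None passed the test by limma. At an unadjusted p under 0.05, 1 was lower (16.7%, beside 13.6% of all genes) and 2 were higher (33.3%, beside 16.8%). Slc22a18, a transporter gene, came nearest, with 9.76, 9.51, 9.31 and 9.45 on the knockdown arrays and 9.24, 9.24, 9.04 and 9.21 on the control arrays. The groups did not overlap, and the log2 fold change was 0.32, with an adjusted p of 0.0791 from limma and of 0.036 with replicate blocks. Phlda2, which limits placental growth, had 0.16, and Ascl2, a transcription factor of the trophoblast, had -0.15. Cd81 and Nap1l4 had fold changes near 0, with 95% confidence intervals of -0.18 to 0.17 and -0.15 to 0.16, and Tssc4 had -0.18 (adjusted p = 0.118 from limma).

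The Peg10 domain held 5 measured genes. None passed the test by limma, and 1 was higher at an unadjusted p under 0.05 (20%, beside 16.8% of all genes). Peg10, a retrotransposon-derived gene required for the placenta, had a log2 fold change of -0.04 (95% confidence interval -0.21 to 0.13). Sgce, which shares its promoter region with Peg10, had 0.33 (adjusted p = 0.217 from limma). Ppp1r9a, which encodes neurabin, had 0.26, with an adjusted p of 0.186 from limma and of 0.0433 with replicate blocks. Asb4 had 0.05. Calcr, the calcitonin receptor gene, had -0.41, and control replicate 3 at 9.48 lay above the other 7 arrays, which were at 7.85 to 8.58.

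In the Snrpn domain, which corresponds to the Prader-Willi and Angelman region in human, 4 paternally expressed genes were measured alone. Ndn, which encodes necdin, gave 9.94, 10.14, 10.15 and 9.96 on the knockdown arrays and 10.92, 10.19, 10.58 and 10.27 on the control arrays. The groups were separate by a small margin, and the log2 fold change of -0.44 did not pass the test (adjusted p = 0.112 from limma). Magel2, Mkrn3 and Peg12 had -0.01, -0.20 and 0.18, with adjusted p of 0.939, 0.179 and 0.165 from limma.

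The other genes did not pass the test either. Plagl1, a zinc finger gene that regulates other imprinted genes, had a log2 fold change of 0.37 (adjusted p = 0.208 from limma), and without control replicate 1 this was 0.53 with an adjusted p of 0.0366. Dcn, which encodes the matrix proteoglycan decorin and is imprinted in the placenta, had -0.35 (adjusted p = 0.0533 from limma) on a dim probe set. Impact had -0.14, Commd1 had 0.11 and Nap1l5 had 0.08. Over all 28 genes that did not pass the test, the median was -0.01.

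The 5 genes without a probe set of their own were H19, Zrsr1, Snrpn, Ube3a and Gnas. No probe set carries the name of H19 or Zrsr1 in the annotation used, so they were not analysed here. Snrpn shares its probe set with Snurf, which lies on the same transcript, and that probe set had a log2 fold change of -0.13 (adjusted p = 0.549 from limma). The probe set named for Gnas and its antisense gene had 0.02 (adjusted p = 0.842 from limma). The probe set named for Ube3a and 3 unrelated genes gave 10.24, 10.62, 10.90 and 10.49 on the knockdown arrays and 10.85, 10.91, 11.02 and 11.05 on the control arrays (log2 fold change -0.40, adjusted p = 0.0957 from limma), and the gene behind this signal cannot be told apart.

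Control replicate 1 stood out in several of the genes above, which was noticed only after the values were seen. It was the highest of the 4 control arrays in 15 of the 35 imprinted genes (42.9%) and in 29.4% of all genes. It exceeded the mean of the other 3 controls by at least 0.5 while being the highest in 5 imprinted genes (14.3%), which were Igf2, Dlk1, Zim1, Plagl1 and Ndn, and in 2.65% of all genes. The excess was 2.05 for Igf2, 1.14 for Dlk1 and 0.94 for Zim1. On the same array, 10 of 12 trophoblast markers and 13 of 20 fibroblast markers were the highest among controls. So were 8 of 15 ESC markers and 5 of 10 mesoderm markers. The numbers were 4 of 14 for primitive endoderm, 3 of 12 for neural cells and 1 of 9 for the 2-cell-like state. The mean signal of the trophoblast list was 9.59 on this array, with 8.98 to 9.43 over the knockdown arrays and 9.06 to 9.59 over all control arrays. For the fibroblast list it was 9.04, with 8.74 to 9.03 over the knockdown arrays and 8.68 to 9.04 over all control arrays. Whether cells of these types contributed to the signal of the imprinted genes was not tested. Leaving this array out gave again 4 genes called lower, while Igf2r then passed 1.5-fold at a log2 fold change of 0.63 and became the only gene called higher.

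**Figure D4:**
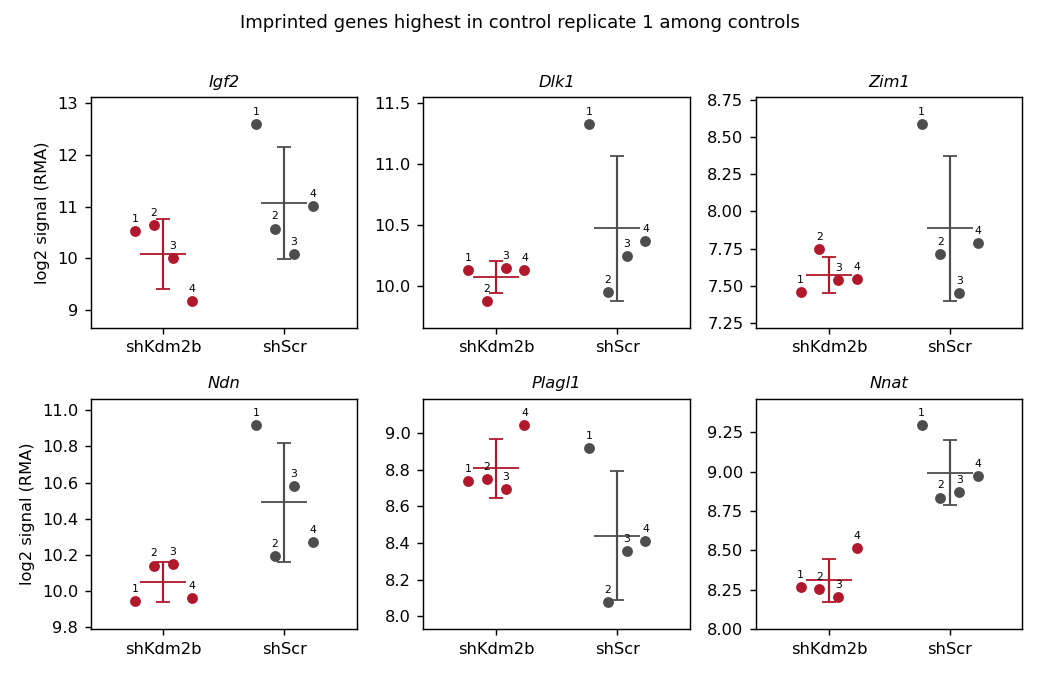
Log2 signal (RMA, vertical axis, a separate range for each gene) of 6 imprinted genes in which control replicate 1 is the highest of the shScr arrays, with shKdm2b arrays in red and shScr arrays in grey. Digits give the replicate, the horizontal bar the mean and the error bar 1 SD. In Igf2, Dlk1 and Zim1 the other 3 control arrays lie among or near the knockdown arrays, whereas in Nnat all 4 control arrays lie above them.

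Promoter composition was compared across the list because of the CpG binding of KDM2B. RefSeq gives a promoter window for 33 of the 40 genes, 29 of them measured, and for 27025 genes in all. The imprinted genes had a median of 20 CpG per window of 300 bases, and all genes had a median of 8 (quartiles 3 and 22), so that 30 of the 33 lay above the median of all genes. Among the measured genes, the 5 that were lower at an adjusted p under 0.05 from limma had 13 to 45 CpG with a median of 17. The 2 that were higher had 25 and 34, and the other 22 had 2 to 48 with a median of 19. The called genes thus lay within the range of the genes that did not pass. The motif TGCCGC, which ZFP57 is known to recognise when its CpG is methylated, was searched on both strands. It occurred in 12 of the 33 windows (36.4%), and in 12.2% of the windows of all genes, which hold fewer CpG. Of the windows printed above, that of Mest has 2 matches, those of Nnat, Mcts2 and Copg2 have 1 each, and those of Peg3 and Igf2r have none. Methylation of these sites was not measured here.

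**Figure D5:**
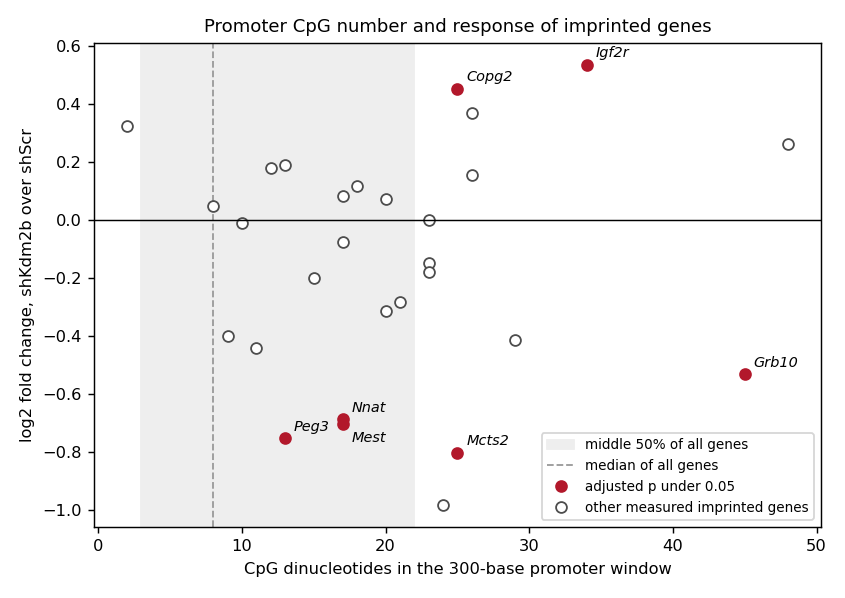
Log2 fold change of shKdm2b over shScr (vertical axis) against the number of CpG in the 300-base promoter window (horizontal axis) for the 29 measured imprinted genes with a RefSeq window. Filled points had an adjusted p under 0.05 from limma, the shaded band spans the quartiles of all genes (3 to 22) and the dashed line their median (8). Genes that passed the test are found at 13 to 45 CpG, on both sides of 0.

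Imprinted genes outside the list were taken from another list of 52, of which 37 were measured alone. By the gene rule 1 fell (2.7%, beside 1.43% of all genes) and 1 rose (beside 1.42% of all genes). Gatm, which encodes an enzyme of creatine synthesis, gave 8.82, 8.61, 8.91 and 8.96 on the knockdown arrays, against 9.61, 9.29, 10.18 and 9.88 on the control arrays (log2 fold change -0.91, adjusted p = 0.0194 from limma). Ampd3, an AMP deaminase, gave 9.94, 10.47, 10.34 and 10.45 on the knockdown arrays, against 9.67, 9.53, 9.28 and 9.46 on the control arrays (log2 fold change 0.81, adjusted p = 0.0104 from limma). Neither overlapped between groups. Another 5 passed the test short of 1.5-fold. Smoc1 had -0.46, Casd1 had -0.57 and Dio3, the last gene of the Dlk1-Meg3 domain, had -0.37, while Dhcr7, an enzyme of cholesterol synthesis, had 0.36 and Tspan32 had 0.25, the last with an adjusted p of 0.0368 from limma and of 0.0644 with replicate blocks. The probe sets of Dio3 and Tspan32 are dim. Casd1 adjoins Sgce, so the Peg10 domain has 1 gene that passed the test among its neighbours. Tspan32 and Dhcr7 lie on chromosome 7 beside the genes of the Kcnq1 domain, so that domain too has neighbours that passed. In all, 4 of these 37 genes were lower (10.8%, beside 4.55% of all genes) at an adjusted p under 0.05 from limma. Another 3 were higher (8.11%, beside 5.75% of all genes).

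Regulators of imprints were measured as a list of 30, and none was called in either direction by limma. The list is broad, with genes for de novo DNA methyltransferases, TET proteins and polycomb subunits among those that keep or read imprints. An unadjusted p under 0.05 was found for 10 of the 30, of which 9 were lower (30%, beside 13.6% of all genes) and 1 higher (3.33%, beside 16.8%). Cbx5, which encodes the heterochromatin protein HP1 alpha, had a log2 fold change of -0.49 (adjusted p = 0.00418 from limma), with 12.69 to 12.79 on the knockdown arrays and 13.14 to 13.34 on the control arrays. Setdb1, the histone H3K9 methyltransferase recruited by TRIM28, had -0.29 (adjusted p = 0.0302 from limma), and Ehmt2, which encodes the methyltransferase G9a for the same residue, had -0.25 (adjusted p = 0.037 from limma). These 3 passed the test short of 1.5-fold, all of them lower (10% of the list, beside 4.55% of all genes). Dppa3, which protects imprints after fertilisation, had -0.51 (adjusted p = 0.0742 from limma) in the stronger of its 2 probe sets. Dnmt3b, a de novo DNA methyltransferase named here after its values were seen, had -0.81, with an adjusted p of 0.0884 from limma and of 0.0103 with replicate blocks. Zfp57 had -0.10 (95% confidence interval -0.29 to 0.09) and Dnmt1, which maintains methylation, had -0.04 (95% confidence interval -0.16 to 0.08).

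The cells carried the markers of ESCs on all arrays. The mean list signal over 15 markers was 12.97 to 12.99 on the knockdown arrays and 12.73 to 12.89 on the control arrays. Of these markers 1 was called higher, beside 1.42% of all genes. Of 17 listed markers of the 2-cell-like state, a rare state of ESC cultures, 9 were measured alone, 8 of them by dim probe sets. By the gene rule 8 of the 9 fell (88.9%, beside 1.43% of all genes). Their mean list signal was 6.60 to 6.75 on the knockdown arrays and 8.55 to 9.68 on the control arrays. Whether this state has a part in the imprinted results was not tested.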

How the data were processed

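RNA of each of the 8 samples was hybridised to 1 Affymetrix Mouse Gene ST array. The authors made the deposited log2 values from probe intensities with RMA in oligo (version 1.18.1 in the submitters' processing notes). The annotation build is not given in the sources used here. Of 35556 probe sets, 21789 name 1 gene, 1621 name several and 12146 carry no name here. Symbols were updated through RefSeq (GRCm38.p6), which holds 19856 of the 19938 genes.

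All probe sets were fitted with limma 3.58.1 in R 4.3.3 (lmFit, eBayes) and adjusted over all of them by Benjamini-Hochberg, without further scaling or filtering. Fold changes are shKdm2b over shScr. RMA compresses those of dim probe sets, and levels of different probe sets were not compared. In simulated data for this comparison, over 35556 probe sets, 82 of 100 changed by 1 on the log2 scale and 74 of 100 changed by 0.6 were recovered, with 7 false calls among 35356 others. Recovery meant an adjusted p under 0.05 from limma, whatever the fold. The simulated noise was independent between arrays and probe sets, unlike that of the real arrays, so these numbers may not hold for them. The number of arrays limits precision.

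Deviations from the group means correlated at 0.118 to 0.355 between arrays of equal replicate number and at -0.231 to 0.0747 between others. Every pair exceeded 0.1 and the labels describe parallel collection, so equal numbers may be pairs. The main fit did not pair them, and values are from it unless another fit is named. A replicate block was an alternative, and its value is given where it changed a call.

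Members, lists and tests were chosen with earlier results of these data known. Genes with an adjusted p under 0.05 and their domain partners are given on every array, other members by fold change, and from other lists the called genes and up to 4 with the smallest p. Mcts1, Airn, Dio3, Dnmt3b, Zfp57, Dnmt1, the miRNA hairpins and the array values of Igf2, Dlk1, Meg3, Slc22a18, Ndn and the probe set shared by Ube3a were added after their values were seen. Figures were drawn with matplotlib 3.10.9.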

Additional observations from a re-analysis of the deposited data

Results flagged for a closer look

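In 4 of the 70 groups of 4 arrays that the 35 imprinted genes give, 1 array was separated from the other 3 by nearly the whole range of its group. Chance alone would separate about 1 in 20 groups in this way. Dlk1 was at 9.88 on shKdm2b replicate 2, with the other knockdown arrays at 10.13 to 10.15. Peg12 was at 9.02 on shKdm2b replicate 3, with the others at 9.23 to 9.26. Plagl1 was at 9.04 on shKdm2b replicate 4, with the others at 8.70 to 8.75. Asb4 was at 7.08 on shScr replicate 1, with the other controls at 7.12, a difference smaller than the spread among the knockdown arrays. None of these 4 genes had an adjusted p under 0.05 from limma.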

How the results depend on the processing

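The 4 calls (Peg3, Mest, Nnat and Mcts2 lower) were unchanged in number with the replicate block, a trended and robust prior, array weights, bright probe sets only, arrays centred on their medians and 1 probe set per gene. Within passages 28 to 30 with a passage term the count of genes lower was 0 and that with adjusted p under 0.05 was 0, in a fit with fewer arrays. When 1 array was left out, 3 to 5 genes were lower (3 without shKdm2b replicate 2 or shScr replicate 3), 0 to 1 higher (1 without shScr replicate 1) and 3 to 9 had an adjusted p under 0.05 from limma, beside 7 with all arrays. Of all genes, 0.833% to 2.13% were called lower in these fits. The 3 with such a p were found without shKdm2b replicate 2 or shScr replicate 3, where 3.25% and 3.54% of all genes passed. Without shScr replicate 2 or 4 there were 4, beside 4.21% and 4.43% of all genes. The 9 were found without shKdm2b replicate 3, where 17.3% of all genes passed, beside 10.3% with all arrays. With the replicate block 10 genes had an adjusted p under 0.05, and with array weights 12. The median of the list stayed between -0.08 and -0.02.

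Of 725 fits of 49 genes under 15 alternatives, 616 kept direction and side of the threshold (adjusted p under 0.05 from limma, whatever the fold), 68 lost and 24 gained such a p, and 17 reversed direction. All reversals were in genes close to 0. Peg10 was at 0.0010 with array weights, at 0.034 within passages 28 to 30, and at -0.085 to 0.015 when 1 array was left out. Nap1l4 was at -0.014 with centred arrays, at -0.066 within passages 28 to 30, and at -0.037 to 0.051 when 1 array was left out. Cd81 was at -0.060 to 0.045 and Magel2 at -0.070 to 0.027 when 1 array was left out, and Nap1l5 was at -0.0046 within passages 28 to 30. Dim probe sets, 7 of the 35, limit what can be seen of Zim1, Rtl1, Dcn and the other genes they read.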

Other observations

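Several miRNA hairpins lie in the imprinted domains, and probe sets on the array carry their names. The hairpins of Mir337, Mir431, Mir127, Mir434 and Mir136, which belong to the maternally expressed transcripts of the Dlk1-Meg3 domain, had log2 fold changes of 0.04 to 0.18. Mir335, in an intron of Mest, had -0.03 while Mest itself was lower, and Mir296 and Mir298 of the Gnas domain and Mir483 of Igf2 had 0.06, 0.17 and 0.06. None of the 9 had an adjusted p under 0.05 from limma, the lowest being 0.209, and none an unadjusted p under 0.05. Only Mir431 and Mir483 were read by bright probe sets, and the array does not tell a hairpin from its host transcript or from the mature miRNA.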
